A study of Saccharomyces cerevisiae with 8 samples.

Results

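The fates open to yeast cells after 6 h in sporulation medium were compared by transcript isoform sequencing: return to growth (T3) against mid-late meiosis (T2). The comparison used 4 of the 8 libraries of the series, 2 replicates of T3 and 2 of T2, chosen by the stage in their titles. All 8 libraries came from the diploid SK1 derivative FW2795, which carries on both copies irt1::pCUP-3HA-IME1, ndt80::pGAL-NDT80 and ura3::pGPD1-GAL4(848).ER besides the marker alleles trp1::hisG, his3::hisG, leu2::hisG, ura3, lys2 and ho::LYS2. In this strain IME1 answers to copper and NDT80 to β-estradiol, and the T3 cells carried the same alleles as the T2 cells. For T3, cells that had received 50 μM CuSO4 at 2 h and had spent 6 h in sporulation medium were moved to rich medium (YPD), and RNA of 15 min to 2 h was pooled. For T2, cells with the same copper treatment received 1 μM β-estradiol at 6 h, stayed in sporulation medium, and RNA of 7 to 9 h was pooled. The other libraries, early meiosis (T1, 3 to 6 h) and pre-meiotic cells (pm, 0 to 2 h), served as a frame and to estimate the spread. Nothing in the labels says whether the replicates of a stage came from separate cultures, so p-values measure the spread between these libraries only.

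IME1 encodes the transcription factor that starts the meiotic programme, and NDT80 encodes the factor that commits cells to the meiotic divisions and to spore formation. Cells that have not yet made Ndt80 can leave the programme when nutrients come back, a path known as return to growth, and then resume mitotic division. Yeast growing in rich medium spends much of its transcription on genes for ribosomes, ribosome assembly and glucose use. Transcript isoform sequencing joins the 5′ and the 3′ end of 1 capped, polyadenylated RNA in 1 read pair, so that each molecule gives its start, its end and the distance between them.

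Each molecule was assigned to the 100-nt bin and strand of its 5′ end (start bin) and of its 3′ end (end bin). Its length was taken as the distance between both ends on the genome, so any intron between them counts as length. Loci are given by their coordinates on the SK1 assembly. An annotation of that assembly was not used here, so no gene names are given, and the stage labels could not be checked against marker genes. The T3 libraries held 856784 and 552357 yeast molecules, and the T2 libraries held 1668155 and 775322. Start bin levels correlated at r = 0.91 between the T3 replicates and r = 0.80 between the T2 replicates across 11405 bins, and between 0.24 and 0.39 for pairs of a T3 and a T2 library. Bins share their libraries, so these values are descriptions. The start of the spike-in RNA pGIBS-LYS was compared with its most frequent start over all 8 libraries. It lay within 5 nt in 79.7 and 73.1% of the molecules in T3 replicates 1 and 2, against 72.1 and 60.0% in T2 replicates 1 and 2. Among these 4 libraries the share was lowest in T2 replicate 2. In replicates 1 and 2 it was 43.2 and 57.5% in T1 and 87.5 and 57.9% in pm. Whether 5′ ends were less complete in libraries with a low share was not tested. The part of T2 replicate 2 in the results below was not tested apart from leaving it out.

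Return to growth and mid-late meiosis differed at a large share of transcript starts. Of 11405 start bins that averaged 5 or more molecules per library, limma voom called 5156 (45.2%) different, at an adjusted p (Benjamini-Hochberg) under 0.05 and a change of 2-fold or more. Of these, 1652 were higher in T3 (14.5% of the bins tested) and 3504 were higher in T2 (30.7%). The plot of all start bins shows that many T2-high bins lie on the floor of the T3 axis. No molecule of either T3 library started in 1525 of the 3504 T2-high bins, and no molecule of either T2 library started in 127 of the 1652 T3-high bins. Over all 11405 bins, 2224 were at 0 in both T3 libraries and 186 in both T2 libraries. Counts of 0 also depend on depth, and the part of depth in this difference was not tested. Among bins that averaged 50 or more scaled molecules in the higher pool (counts divided by the library's median-of-ratios factor), 336 T2-high bins were at 0 in both T3 libraries and 29 T3-high bins were at 0 in both T2 libraries.

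**Figure D1:**
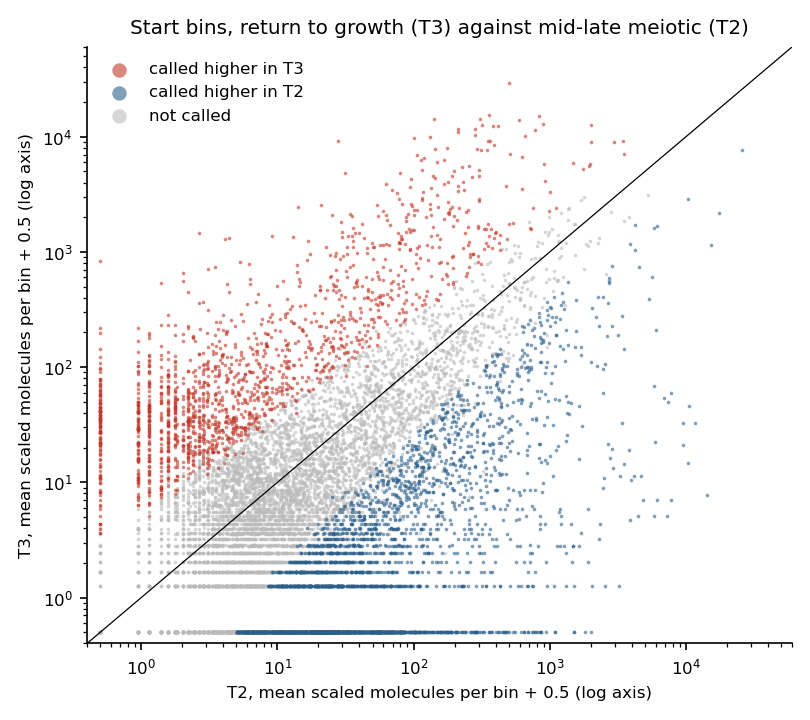
Mean scaled molecules per 100-nt start bin in T3 (vertical) against T2 (horizontal), 0.5 added, both axes logarithmic, with the line of equal levels. The 1652 bins called higher in T3 lie above the line, the 3504 called higher in T2 lie below it, and many of the second set have no T3 molecule at all.

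The balance of the directions depended on how libraries were scaled, on the filter and on the method. The median log2 change (T3 minus T2) over all bins was -1.03, so a typical bin lay below the line of equal levels. It was -1.12 with scaling by the library total and -0.25 with upper-quartile scaling, where 2139 bins were called higher in T3 and 2434 higher in T2. Relative to the median of -1.03, 3431 of the 3504 T2-high bins still lay at least 2-fold lower in T3. All 1652 T3-high bins lay at least 2-fold higher, and both sets were called on this same change. Over all 11405 bins, 4052 lay at least 2-fold above that median and 4084 at least 2-fold below it, so the directions were nearly even around it. T3-high bins made up 32.0% of the calls, against 46.8% with upper-quartile scaling. Without the filter on mean molecules, 4127 bins were called higher in T3 and 5165 higher in T2 (44.4% T3-high, median log2 change -0.02). With limma-trend, 1816 were called higher in T3 and 2932 higher in T2 (38.2% T3-high, median log2 change -0.45). Without T3 replicate 1 the calls dropped to 2821, and without T3 replicate 2 to 3149. In bulk RNA, fewer cells of a kind and less RNA per cell cannot be told apart.

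The molecules of the return-to-growth cells were concentrated on fewer starts. In T3, 112 and 104 start bins held 50% of the molecules, against 229 and 287 in T2. The T3 mean was 108 ± 5.66 bins and the T2 mean 258 ± 41.0 bins (SD, n = 2 each). The pools did not overlap, and the exact two-sided permutation test gave p = 0.333, the smallest that 2 libraries against 2 allow. The 100 fullest bins held 48.0 and 49.4% of T3 molecules, against 37.9 and 33.5% of T2 molecules. The 10 fullest bins held 11.4 and 12.2% in T3, against 12.6 and 9.90% in T2, so the pools did not part at the very top. The difference lay in the bins below those 10, as the curves of molecules held by rising numbers of bins show.

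The 8 T3-high loci with the most molecules were main starts of their units, a unit being the start bins whose molecules mostly end in 1 shared 3′ region, and the main start its fullest start bin in T1. All 8 were higher in both T3 libraries than in either T2 library, which follows from their choice among bins called higher in T3. The pools did not overlap in 1648 of the 1652 T3-high bins and in 8371 of all 11405 bins. At chr12:351001-351100 (minus strand), the fullest start bin of T3, scaled molecules were 24388 and 33744 in T3, against 739 and 269 in T2. The log2 change there was 5.95 ± 0.50 (SE; adjusted p = 3.35e-07). Its molecules were short, with a median of 528 nt in T3 and 529 nt in T2, and started most often at position 351066 in both pools.

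At chr2:575601-575700 (minus), scaled molecules were 15131 and 15979 in T3, against 268 and 451 in T2. On the other strand of the same chromosome, chr2:587201-587300 (plus) had 14678 and 13832 in T3, against 181 and 433 in T2. Both starts also kept their lengths, with medians of 1183 nt at the first and 1094 nt at the second in each pool. At chr7:316201-316300 (plus) the levels were 15246 and 15098 in T3, against 605 and 1066 in T2. At chr12:761701-761800 (plus) they were 13777 and 13975 in T3, against 819 and 362 in T2. These loci had T1 levels near those of T2.

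At each of the 8, both pm libraries lay above both T1 libraries. At chr7:873701-873800 (minus), scaled molecules were 16167 and 12279 in T3, against 176 and 106 in T2. The same bin had 303 and 252 in T1 and 14009 and 13209 in pm, so its T3 level was near that of the starved pre-meiotic cells. The log2 change of T3 against T2 was 6.66 ± 0.46 (SE; adjusted p = 1.51e-07). At chr12:351001-351100 the levels were 766 and 333 in T1 and 3484 and 6148 in pm, and at chr5:84301-84400 they were 1973 and 2047 in T1 and 7190 and 4803 in pm. The smallest change among the 8 was at chr5:84301-84400 (plus), with 12572 and 12543 scaled molecules in T3, against 1639 and 2399 in T2 (log2 change 2.69 ± 0.31, SE; adjusted p = 5.99e-06).

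**Figure D2:**
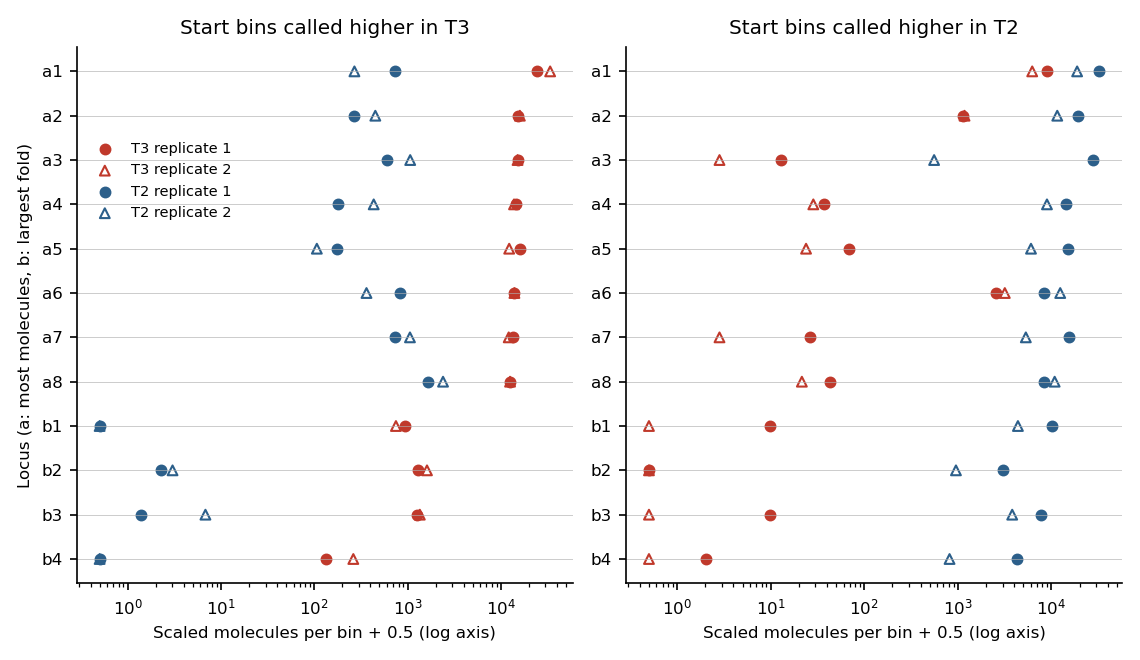
Scaled molecules per start bin, 0.5 added, on a logarithmic axis, at the loci named by the rule: left the bins called higher in T3, right those called higher in T2, with a1 to a8 the fullest and b1 to b4 the largest changes. Each mark is 1 library (T3 red, T2 blue, filled circles replicate 1, open triangles replicate 2), and at every locus shown the T3 and T2 marks do not overlap. The loci were chosen for their difference, and the pools did not overlap in 8371 of all 11405 start bins.

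The 4 T3-high loci with the largest changes were close to empty in T2. At chr7:260001-260100 (plus), scaled molecules were 930 and 750 in T3, against 0 and 0 in T2. This was at least 538-fold higher in T3 against a floor of 3 molecules over both T2 libraries together. This bin adjoins its main start, chr7:259901-260000, which was itself higher in T3 (8692 and 6955, against 102 and 183 in T2). Its share of the unit's molecules was 9.57 and 9.59% in T3, against 0 and 0% in T2. At chr7:283001-283100 (plus), likewise next to its main start, the levels were 1247 and 1352 in T3, against 0.886 and 6.31 in T2. Its share of the unit was 13.7 and 16.5% in T3, against 0.326 and 4.10% in T2. In both units the flanking bin lay downstream of the main start bin. The usage test called it higher in T3 relative to the rest of the unit (adjusted p = 0.00421 and 0.00394). Its most frequent T3 start was position 260008 in the first unit and 283004 in the second, close to the border with the main start bin. Whether these molecules belong to the main start, cut by the border, was not tested.

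At chr8:437901-438000 (plus) the levels were 1290 and 1614 in T3, against 1.77 and 2.52 in T2. That start was also strong in pm (695 and 1216) and near 0 in T1 (4.86 and 0.760), the same order of stages as at chr7:873701-873800. At chr13:707801-707900 (minus) the levels were 134 and 262 in T3, against 0 and 0 in T2, at least 126-fold higher in T3 against the same floor. No other stage exceeded 5.57 scaled molecules there.

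Among T2-high loci, the fullest start, chr4:714101-714200 (minus), was also strong in T3. Scaled molecules were 9030 and 6224 in T3, against 32573 and 18797 in T2 (log2 change -1.69 ± 0.32, SE; adjusted p = 4.40e-04). With upper-quartile scaling the change was -0.93, under the 2-fold limit. At chr7:568701-568800 (minus) the levels were 2579 and 3171 in T3, against 8414 and 12399 in T2. The T3 level was above that of T1 at the first and near it at the second. At chr11:267701-267800 (plus) they were 1122 and 1177 in T3, against 19130 and 11528 in T2, and 910 and 523 in T1.

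At 5 others of the 8 fullest T2-high loci the T3 level was near 0. At chr5:400201-400300 (minus), scaled molecules were 36.8 and 28.0 in T3, against 14424 and 8947 in T2 (log2 change -8.41 ± 0.65, SE; adjusted p = 1.81e-07). The few T3 molecules there had a median length of 121.5 nt, against 876 nt in T2. At chr4:540501-540600 (minus) the levels were 26.1 and 2.34 in T3, against 15217 and 5320 in T2. Neither of these starts exceeded 22.8 scaled molecules in T1 or pm. At chr4:985101-985200 (plus), 43.0 and 21.0 in T3 stood against 8344 and 10812 in T2, and T1 already had 913 and 1159.

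The start at chr3:147201-147300 (minus) was used in all stages but T3. It had 67.5 and 23.4 scaled molecules in T3, against 14982 and 6041 in T2, with 2735 and 4382 in T1 and 6248 and 5677 in pm (T3 against T2, log2 change -7.82 ± 0.83, SE; adjusted p = 2.31e-06). At chr15:873301-873400 (minus) the T2 replicates disagreed by far. The levels were 12.3 and 2.34 in T3, against 27805 and 557 in T2, so its rank among the fullest rests on T2 replicate 1. Its log2 change was -9.40 ± 2.54 (SE; adjusted p = 0.00603).

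A pair of the largest T2-high changes were neighbours on 1 strand. At chr12:698101-698200 (plus), scaled molecules were 9.21 and 0 in T3, against 10056 and 4379 in T2. At chr12:695701-695800 (plus), further upstream, they were 0 and 0 in T3, against 3025 and 953 in T2. This was at least 716-fold lower in T3 against a floor of 3 molecules over both T3 libraries together. Both were already above 0 in T1, at 188 and 290 for the first and 22.2 and 45.6 for the second. At chr16:508301-508400 (plus) the levels were 9.21 and 0 in T3, against 7808 and 3805 in T2. At chr4:884001-884100 (minus) they were 1.54 and 0 in T3, against 4245 and 814 in T2.

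The size of the changes depended on how molecules were counted. With each pair of 5′ and 3′ positions counted once per library, the log2 changes at the 8 fullest T3-high loci lay between 1.96 and 4.73, against 2.69 to 6.66 with all molecules. At the 8 fullest T2-high loci they lay between -7.46 and -1.03, against -9.77 to -1.69. Each of the 16 kept its direction and its call. At chr12:351001-351100 the change was 4.38, at chr2:575601-575700 it was 3.29, and at chr11:267701-267800 it was -1.95.

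T2 replicate 1 lay above replicate 2 at most of the named T2-high loci. Over all 3504 T2-high bins the median log2 ratio of T2 replicate 1 to replicate 2 (1 added) was 0.63, against 0.22 over all bins tested, and 1327 of them were at least 2-fold higher in replicate 1. The T3 replicates had a median log2 ratio of 0.00 over the T3-high bins. The part of this imbalance in the calls was not tested, beyond the counts with each T2 library left out: 4419 calls without T2 replicate 1 and 5444 without replicate 2.

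Set beside early meiosis, the T3-high bins stood out by a high T3 level and the T2-high bins by a shift in both pools. The T3-high bins had a median log2 difference of 3.89 for T3 minus T1 and -0.24 for T2 minus T1, and 1524 of the 1652 were at least 2-fold above T1 in T3. The T2-high bins had medians of -1.96 for T3 minus T1 and 1.80 for T2 minus T1. Over all bins tested the medians were -0.66 and 0.09. Of the 3504, 2287 were at least 2-fold below T1 in T3 and 2170 were at least 2-fold above T1 in T2. Over all 11405 bins tested, 5076 were at least 2-fold below T1 in T3 and 3639 at least 2-fold above T1 in T2. In T3, 3082 of all bins were at least 2-fold above T1. These differences share the T3, T2 and T1 libraries with each other and with the calls, and no test was made of them.

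Ends of molecules gave a similar count. Of 9787 end bins, 3905 (39.9%) were called, 1377 higher in T3 (14.1%) and 2528 higher in T2 (25.8%). Starts and ends are those of the same molecules. Where the main start of a unit was higher in T3, the unit's end bin was called in the same direction in 597 of 664 units and in the other direction in 1. Where it was higher in T2, the end bin followed in 1236 of 1462 units and moved the other way in 0. Leaving out T3 replicate 1 turned the balance of the end calls, with 894 higher in T3 and 571 higher in T2, and leaving out T3 replicate 2 gave 909 and 848.

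Some starts moved otherwise than the rest of their unit. The usage test (limma diffSplice within units) covered 8494 start bins of 2448 units and called 218 (2.57%), 82 with a higher relative use in T3 (0.965%) and 136 with a higher relative use in T2 (1.60%). Upstream bins, at least 200 nt before the main start, leaned to T2: 42 of 766 (5.48%) had a higher relative use in T2 and 4 (0.522%) in T3. Internal bins, at least 200 nt after the main start, were called in both directions, 16 of 2825 higher in T3 and 15 higher in T2. The internal counts were 23 higher in T3 and 10 in T2 without T2 replicate 1, 87 and 23 without T2 replicate 2, and 26 and 15 with scaling by the total. The 42 upstream starts belonged to 36 units and lay 200 to 1400 nt before the main start, with a median of 300 nt. Their median share of the unit was 0 and 0% in T3, against 15.1 and 12.1% in T2.

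The main start of those units did not follow 1 pattern. Beside the 42 upstream bins the main start was called higher in T3 in 16 cases, higher in T2 in 3, and was not called in 23. A main start was counted once for each such bin of its unit. Over all 4490 main start bins, 14.8% were called higher in T3 and 32.6% higher in T2. The upstream bins were chosen by their change relative to the rest of the unit, which includes the main start. The number of usage calls rested on the T3 replicates: 37 without T3 replicate 1 and 24 without T3 replicate 2, with 8 and 7 upstream bins still called higher in T2. Without T2 replicate 2 there were 430 calls. Upstream bins were called higher in T3 in 11 cases and higher in T2 in 24 without T2 replicate 1, and in 10 and 56 cases without T2 replicate 2.

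In 3 of the 4 units with the largest relative change of an upstream start towards T2, the main start was higher in T3 and the upstream start was lower in T3 than in T2. At chr16:676301-676400 (minus), 300 nt upstream of the main start, scaled molecules were 46.1 and 7.01 in T3, against 448 and 206 in T2, while the main start at chr16:676001-676100 had 898 and 1170 in T3, against 131 and 54.3 in T2. The upstream start held 4.55 and 0.555% of the unit in T3, against 74.4 and 75.1% in T2. Its relative change was -6.75 ± 0.83 on the log2 scale (SE; adjusted p = 1.29e-05). In T1 this upstream start had 204 and 235 scaled molecules, so the long isoform was in use before the fates parted.

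At chr15:141201-141300 (minus) the upstream start had 1.54 and 0 scaled molecules in T3, against 47.0 and 17.7 in T2, and 1.74 and 3.80 in T1. Its main start at chr15:140901-141000 had 4392 and 4269 in T3, against 142 and 49.2 in T2. At chr15:767701-767800 (plus) the upstream start had 1.54 and 11.7 in T3, against 105 and 21.5 in T2, with 3.82 and 1.52 in T1, and its main start 2085 and 2989 in T3, against 71.8 and 35.3 in T2. Both upstream starts also had few molecules in T1. The call at chr15:141201-141300 was lost without T3 replicate 2 (log2 change -3.71, adjusted p = 0.0780), and the call at chr15:767701-767800 was lost without T3 replicate 1, without T2 replicate 1 and with upper-quartile scaling (log2 changes between -2.51 and -1.96).

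In the unit with the main start at chr5:266301-266400 (minus), the main start was not called, with 877 and 1098 scaled molecules in T3 and 524 and 587 in T2. Its upstream start at chr5:266601-266700 had 0 and 0 in T3, against 260 and 98.4 in T2, at least 64.4-fold lower in T3 against the floor of 3 molecules. The change at the upstream start was thus seen beside a main start that did not pass the test.

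The upstream start with the largest relative change towards T3 was at chr13:733801-733900 (plus), 200 nt before its main start. It held 98.8 and 100% of the unit's molecules in T3, against 3.70 and 0% in T2. Scaled molecules there were 129 and 100.4 in T3, against 3.54 and 0 in T2, and at the main start, chr13:734001-734100, they were 1.54 and 0 in T3, against 92.2 and 25.2 in T2. The T3 molecules of the upstream start had a median length of 1250 nt, and they were not compared in length with molecules of the main start. Both sides of the exchange were called (log2 change 6.19 ± 0.98 at the upstream start and -4.95 ± 0.97 at the main start, SE; adjusted p = 9.32e-05 and 5.72e-04).

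Internal starts were named in 4 units. At chr4:532401-532500 (plus), 400 nt inside its unit, scaled molecules were 47.6 and 168 in T3, against 1.77 and 5.05 in T2. The main start at chr4:532001-532100 had 1.54 and 2.34 in T3, against 159 and 99.7 in T2. The T3 molecules were short, with a median of 223 nt. At chr2:160201-160300 (plus), 1000 nt inside its unit, they were 3.07 and 2.34 in T3, against 230 and 65.6 in T2, with a median length of 229.5 nt in T2. At chr4:67501-67600 (minus) the internal start had 0 and 0 in T3, against 86.0 and 10.1 in T2, while its main start was not called (206 and 191 in T3, against 287 and 251 in T2). At chr13:83601-83700 (minus) the internal start had 56.8 and 149 in T3, against 0 and 20.2 in T2, a call lost without T2 replicate 1. An internal start bin can also hold molecules that lost their 5′ part, and the 2 kinds were not separated.

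Ends were also compared among molecules of 1 start. Of 6516 pairs of a start bin and an end bin, 0 were called by the usage test (0.00%), and 529 had an unadjusted p under 0.05 in limma. Without T2 replicate 1 there were 25 calls and without T2 replicate 2 there were 346, both fits leaving T2 with 1 library that is assumed to vary like the others. A change of ends within starts was not detectable at this depth and spread with all libraries.

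Most of the antisense starts that were called were higher in T2. Of 302 tested start bins that lie inside a unit with more molecules on the other strand, and whose molecules overlap it by at least 100 nt, 8 (2.65%) were higher in T3 and 142 (47.0%) were higher in T2, beside 14.5 and 30.7% over all start bins. Their median log2 change was -2.31, against -1.03 over all. Molecules starting in them made up 0.0582 and 0.0789% of T3 libraries, against 0.442 and 0.407% of T2 libraries (T3 mean 0.0686% ± 0.0146, T2 mean 0.424% ± 0.0242, SD, n = 2 each; exact two-sided permutation p = 0.333). The groups did not overlap. Start bins were admitted by their mean molecules over the libraries of all stages, T2 included. A bin with few T3 molecules could thus enter through the other stages. Without this filter the median log2 change over all start bins was -0.02. The antisense bins were not matched in level to the other start bins, and the filter was not varied for them. Whether antisense starts lean to T2 more than other starts of the same level was therefore not tested.

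The antisense start with the most molecules in T2 among those called was chr6:196801-196900 (plus), which had 0 and 0 scaled molecules in T3, against 157 and 75.7 in T2, at least 41.8-fold lower in T3 against the floor. It was stronger in T1 (194 and 319) and had none in pm. At chr5:285601-285700 (plus) the levels were 1.54 and 0 in T3, against 161 and 58.0 in T2. The fullest antisense start called higher in T3, chr8:87501-87600 (minus), reached only 16.9 and 28.0 in T3, against 2.66 and 0 in T2, and was not called without T2 replicate 2.

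Among starts whose first reads mostly stopped at 1 place, more were higher in T3 than in T2. Splicing joins exons that lie apart in the genome, and yeast introns tend to lie close to the 5′ end of their genes, many of them genes of ribosomal proteins. No deposited read spanned more than 120 nt (0 in each library), and the longest first and second reads were 70 and 78 nt in every library. A spliced read could thus not be seen as a gap, and the 0 sets no limit on the share of spliced molecules. First reads under 40 nt made up 17.3 and 14.6% of T3 molecules, against 12.7 and 8.73% of T2 molecules. In 153 of 6470 start bins with at least 50 molecules in pm and T1 together, at least 50% of the first reads of those 2 stages were under 60 nt and ended at 1 shared inner position, called a fixed inner edge here. The T3 and T2 molecules were not used to choose them, but the class was noticed in these data. Most bins had a share under 10%, and the rest spread over the whole range up to 100%, so the limit of 50% does not fall in a gap. Just outside it, 11 bins lay between 45 and 50%, and just inside it, 11 bins lay between 50 and 55%.

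Of the 153 bins with a fixed inner edge, 83 (54.2%) were higher in T3 and 21 (13.7%) were higher in T2. The other 6317 bins with at least 50 molecules in pm and T1 had no such edge. Of these, 753 (11.9%) were higher in T3 and 1744 (27.6%) were higher in T2. Both sets share that minimum but were not matched in depth. The median log2 change was 2.97 with a fixed edge and -0.94 without. Molecules starting in the 153 bins made up 14.6 and 14.3% of T3 libraries, against 1.43 and 1.80% of T2 libraries (T3 mean 14.5% ± 0.177, T2 mean 1.61% ± 0.259, SD, n = 2 each; exact two-sided permutation p = 0.333). Their share was 2.39 and 2.72% in T1 and 4.63 and 3.99% in pm. Whether the edges are exon borders was not tested.

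**Figure D3:**
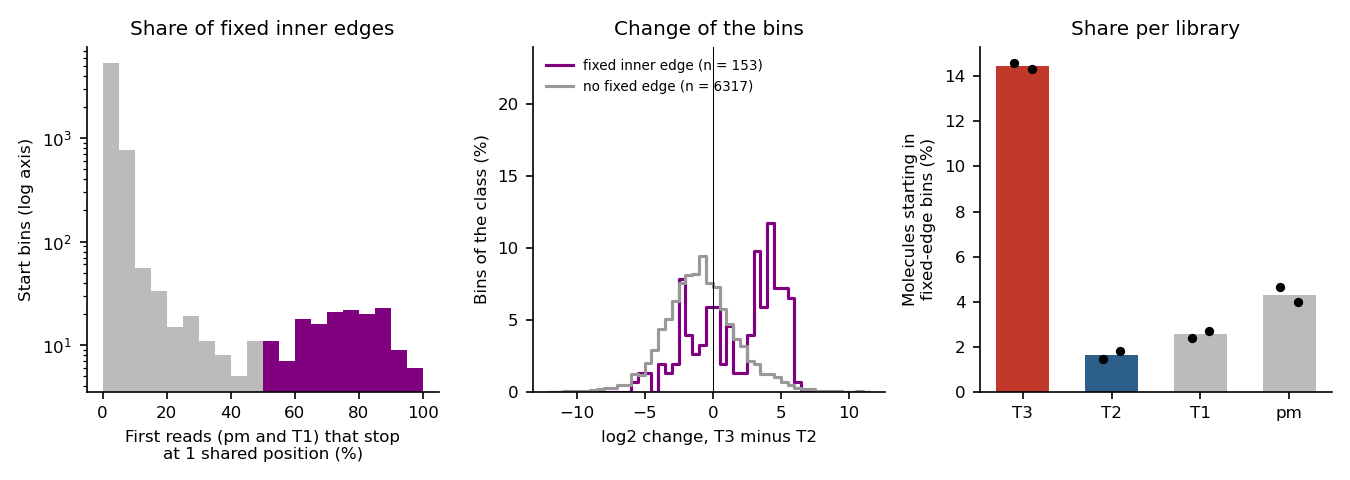
Left, number of start bins (logarithmic axis) by the share of their pm and T1 first reads that stop at 1 inner position, with bins at 50% or more in purple. Middle, distribution of the log2 change (T3 minus T2) for the 153 bins with and the 6317 bins without a fixed inner edge; right, the share of each library's molecules that start in the 153 bins (bars are means, points are libraries), near 14% in T3 and under 2% in T2.

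The fixed-edge starts with the most T3 molecules kept the same edge in both fates. At chr2:575601-575700 (minus), already described, 93.0% of T3 molecules and 90.4% of T2 molecules had a first read that stopped at position 575582, 31 nt from the most frequent start in each pool, counting both positions. At chr2:587201-587300 (plus) the shares were 88.0% in T3 and 87.9% in T2, at position 587328, 34 nt from the start. At chr13:116901-117000 (minus), with 11305 and 13802 scaled molecules in T3, against 408 and 226 in T2, they were 83.4% in T3 and 80.8% in T2, 33 nt from the start. The level of these starts changed between the fates while the place of the edge did not.

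The set also held starts that were higher in mid-late meiosis. At chr2:663301-663400 (minus), scaled molecules were 384 and 432 in T3, against 1801 and 2699 in T2 (log2 change -2.42 ± 0.48, SE; adjusted p = 6.24e-04), with the edge in 84.6% of T3 and 83.1% of T2 molecules. At chr13:395001-395100 (plus) they were 264 and 156 in T3, against 1254 and 1363 in T2, with the edge in 95.0% of T3 and 94.7% of T2 molecules. Its edge lay 44 nt from the most frequent start in both pools. A fixed edge thus went with either direction, with more bins higher in T3.

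Molecule lengths, as distances between the ends on the genome, were alike in the middle of the range and parted at 1 long class. They are not lengths of spliced RNA. The median length was 908 and 857 nt in T3, against 863 and 772 nt in T2, and the pools overlapped (T3 mean 882.5 ± 36.1 nt, T2 mean 817.5 ± 64.3 nt, SD, n = 2 each; exact two-sided permutation p = 0.667). Molecules of 1750 to 1849 nt, the 50-nt classes of at least 0.1% in T3 that differed by 10-fold or more, made up 0.591 and 0.614% of T3 libraries, against 0.0259 and 0.0298% of T2 libraries. Nearly all of them came from 1 start. The bin chr7:371701-371800 (minus) gave 5003 of 5061 and 3356 of 3394 of these molecules in T3, and 356 of 432 and 212 of 231 in T2.

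That bin is 1 of the 153 with a fixed inner edge. Its scaled molecules were 7723 and 7898 in T3, against 320 and 268 in T2 (log2 change 4.73 ± 0.39, SE; adjusted p = 3.35e-07), and their median length was 1802 and 1801 nt in T3, against 1803 and 1802 nt in T2. Without it, molecules of the same lengths made up 0.00677 and 0.00688% of T3 libraries, against 0.00456 and 0.00245% of T2 libraries. Of its molecules, 98.1% in T3 and 99.3% in T2 had a first read that stopped at position 371674.

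**Figure D4:**
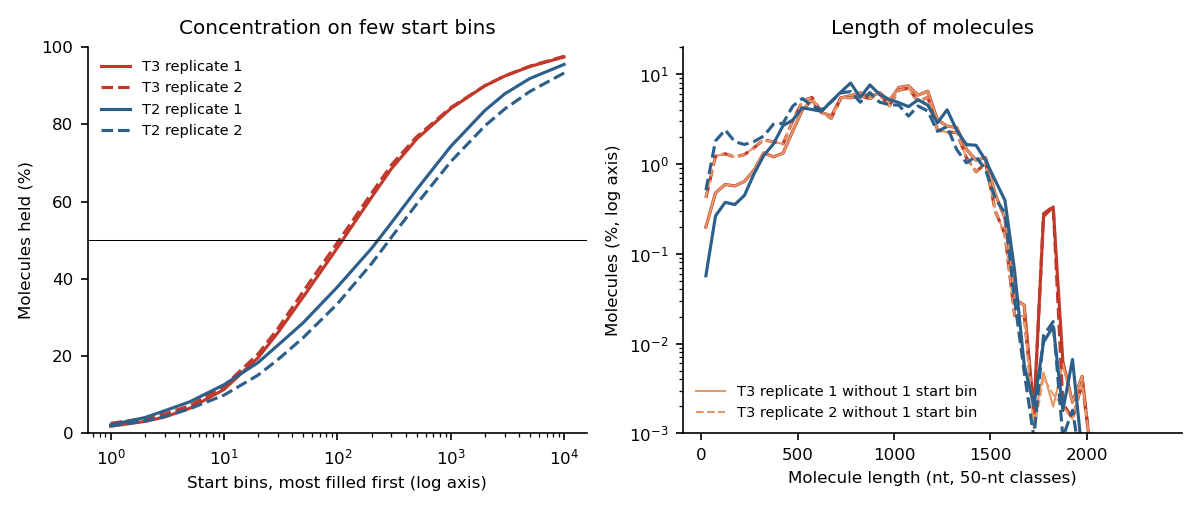
Left, share of each library's molecules held by the fullest start bins (logarithmic axis), with the line at 50%, crossed at 112 and 104 bins in T3 and at 229 and 287 bins in T2. Right, share of molecules per 50-nt length class (logarithmic axis) for the same 4 libraries, with T3 drawn again in orange without chr7:371701-371800, which removes the peak near 1800 nt.

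Within a start, the exact position was mostly kept. In 602 units with at least 50 molecules in each of the 4 libraries in the main start bin and its 2 flanking bins, the most frequent 5′ position lay within 2 nt between replicates, in T3 and in T2 alike, in 408. In 371 of these 408 the T3 and T2 positions were the same within 2 nt. In 29 they lay at least 10 nt apart, 20 with the T3 position downstream of the T2 position and 9 with it upstream. These are single positions, so a shift need not mean that most molecules moved. At chr12:630401-630500 (plus), 54.2 and 43.1% of T3 molecules lay within 5 nt of the T2 position, against 26.4 and 33.8% near the T3 position. At chr16:104601-104700 (plus), 44.8 and 37.3% of T2 molecules lay near the T3 position, against 25.9 and 27.2% near the T2 position. This measure was added after the data had been seen, and no test was made of it. With 1 library left out, fewer positions had to match and 54 to 63 units were counted as shifted, between 34 and 46 of them downstream in T3.

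The largest shift was at the main start bin chr16:240701-240800 (minus), where T3 molecules started most often at 240630 in both replicates and T2 molecules at 240781, 151 nt further upstream. Within 5 nt of the T3 position lay 55.2 and 48.0% of T3 molecules, against 0 and 0% of T2 molecules. Within 5 nt of the T2 position lay 0.452 and 0% of T3 molecules, against 57.2 and 52.6% of T2 molecules, from 221 and 125 molecules in T3 and 180 and 57 in T2. The 2 fates thus used separate positions there. At chr9:412001-412100 (minus) the positions lay 49 nt apart, with 63.3 and 61.9% of T3 molecules within 5 nt of the T3 position, against 3.42 and 2.56% of T2 molecules.

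At chr4:120701-120800 (minus) T3 molecules started most often at 120658, 77 nt downstream of the T2 position 120735. Within 5 nt of the T3 position lay 34.3 and 41.2% of T3 molecules, against 3.23 and 5.61% of T2 molecules. At chr5:538801-538900 (plus) the T3 position was 76 nt downstream, and 46.1 and 41.7% of T3 molecules lay near it, against 13.5 and 14.4% of T2 molecules. In the other direction, at chr12:834101-834200 (plus), where the T3 position was 77 nt upstream, it held 21.6 and 22.8% of T3 molecules, against 14.9 and 11.9% of T2 molecules. At chr15:502901-503000 (plus), with the T3 position 53 nt upstream, it held 41.3 and 41.2% of T3 molecules, against 8.29 and 8.13% of T2 molecules.

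**Figure D5:**
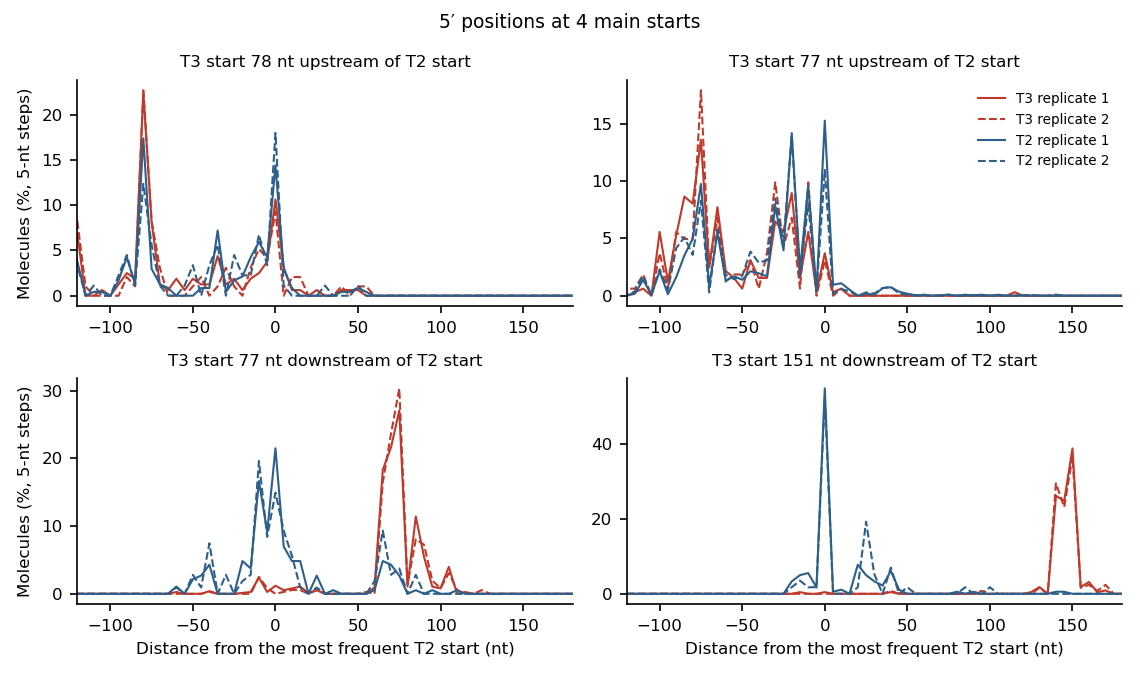
Share of molecules per 5-nt step against the distance from the most frequent T2 start, negative upstream, at the 2 units shifted furthest upstream (top) and the 2 shifted furthest downstream (bottom) in T3. Lines are libraries (T3 red, T2 blue, replicate 2 dashed); the T3 and T2 profiles barely overlap at the shift of 151 nt, while both positions are used in both pools at the upstream shifts of 78 and 77 nt.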

How the data were processed

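Capped, polyadenylated RNA was sequenced with the TIF-Seq2 protocol (76-nt reads), and the authors mapped reads to the SK1 assembly and spike-ins, kept unique pairs on 1 chromosome, and deposited the positions of both reads with a mapping quality score that was 255 for every pair. The deposited files hold no counts per feature. The submitters' processing notes name cutadapt 1.16, STAR 2.5.3a and bedtools without saying for which data. From the positions, 5′ and 3′ ends were counted per 100-nt bin and strand in Python 3.11.15 (spike-ins left out). Bins with a mean of at least 5 molecules were fitted with limma 3.58.1 (voom; R 4.3.3) over all 8 libraries with stage as the only term (4 residual degrees of freedom), the median of ratios as the library scale, and p-values adjusted by Benjamini-Hochberg over all bins. diffSplice tested use within units and within starts. Each deposited line was counted as 1 molecule. Limits set by a count of 0 cover counting error only, while SEs and p-values come from the spread between libraries.

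Named loci were, per direction, the 8 called start bins with most molecules, the 4 with the largest change at a mean of 50 or more scaled molecules, up to 4 upstream, 2 internal and 2 antisense bins, and called pairs (0). The 5 starts with most gapped reads were void, since no read held a gap. Members and lists were chosen with earlier results of these data known. Fixed inner edges, shifted positions and the start near 1800 nt were added after seeing the data. The steps were tested on simulated data. The alternatives comprised other scalings, filters, bins, limma-trend, a fit with a replicate block and fits without each library in turn. The replicate numbers are not known to pair libraries.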

Additional observations from a re-analysis of the deposited data

Results flagged for a closer look

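The libraries hold molecules of spike-in RNAs that no comparison of expression used, and they lie above the limit of 3 molecules that a count of 0 allows. There were 1290 spike-in molecules in T3 replicate 1 and 898 in T3 replicate 2, against 1460 in T2 replicate 1 and 1504 in T2 replicate 2. They made up 0.150 and 0.162% of the T3 libraries, against 0.0874 and 0.194% of the T2 libraries. The T2 shares lie on either side of both T3 shares. No other result met the rules for a closer look, and groups of 2 libraries allow no test for an outlying sample.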

How the results depend on the processing

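No called start or end bin was called in the opposite direction under any alternative that kept the same bins. Calls at starts were 9292 without a filter, 2340 with a mean of at least 20 molecules, and 2821 to 5444 with 1 library left out. Calls at ends were 6363, 2331 and 1465 to 4950. Usage calls at starts were 69 with at least 20 molecules, 127 with only the 4 libraries of T2 and T3, and 24 to 430 with 1 library left out. Usage calls at ends were 0 to 346 with 1 library left out. A filter changes how many bins are tested, and a fit with 1 library less has fewer residual degrees of freedom; beyond that the cause was not tested. With a replicate block, a fit in which libraries of the same number share a term, there were 4947 start calls, 3764 end calls, 162 usage calls at starts and 0 at ends. The deviations of T3 and T2 replicates from their means correlated at 0.08 across bins. The difference in bins holding 50% of the molecules was -208 with 50-nt bins, against -150 with 100-nt bins. The antisense difference was -0.320 percentage points with an overlap of at least 300 nt, against -0.356. The fixed-edge difference was 11.1 points at 70% of first reads, against 12.8. Shifted starts numbered 54 to 63 with 1 library left out, against 29. At the 37 named loci, 608 of 618 alternative values kept their call and 10 fell short of it, 0 with a change of sign. T3 replicate 2 was the shallowest library, with 552357 molecules, and limits how low a T3 level can be seen.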
